A study of Mus musculus with 9 samples.

Results

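The theta-class glutathione S-transferase genes of the mouse are Gstt1, Gstt2, Gstt3 and Gstt4. They were taken by symbol from the deposited expression table, in which 4 of the 23799 genes matched. Their levels were read in 9 RNA sequencing libraries of fluorescently sorted mouse tumour cells. Breast cancer (BC) cells were GFP-sorted and derived from 4T1-eGFP, a single mammary carcinoma line carrying green fluorescent protein, at 28 days. They gave 2 libraries of primary tumour, numbers 1 and 5, and 2 of lung metastasis, numbers 4 and 6. Pancreatic ductal adenocarcinoma (PDAC) cells were YFP-sorted from mice whose labels all carry p48-Cre, p53F/+, KrasL/+ and ROSA-LSL-YFP, so that Cre expressed in the pancreatic lineage turns on the reporter. PDAC mouse 1, at 25.67 weeks, also carries SIRT6F/F and gave a primary tumour, a liver metastasis and a lung metastasis. PDAC mouse 5, at 28.95 weeks and without that allele, gave a primary tumour and a liver metastasis. Age, the SIRT6 allele and the mouse therefore cannot be told apart, and the 2 models differ in line, fluorescent protein and time. The labels do not say whether the BC libraries of a group came from separate animals, so the spread within those groups may be technical.

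Glutathione S-transferases join the thiol of glutathione to reactive compounds, and the conjugates are then exported and trimmed to mercapturic acids. The theta class is an old branch of the family that uses a serine rather than a tyrosine in its active site and has little activity towards the standard test substrate of other classes. Gstt1 is known for conjugating small halogenated compounds and for reducing organic hydroperoxides, Gstt2 for acting on sulfate esters, and liver is a classical site of both. Gstt3 is a rodent relative of Gstt1.

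The 4 genes lie next to each other on chromosome 10 in the order Gstt3, Gstt1, Gstt4, Gstt2, in RefSeq's annotation of GRCm38.p6. That build is later than mm9, the build in the submitters' processing notes, so no position of the deposited values is given. Reads can be divided between copies only where their sequences differ, so identical stretches of the coding sequences (GENCODE release M21) were sought. The longest stretch of a pair is shown for Gstt1 with Gstt3 and for Gstt2 with Gstt3. Gstt1 and Gstt3 were 75.4% identical over 720 aligned bases and shared 7 runs of 31 bases. Their longest shared stretch, of 35 bases, starts at base 499 of both coding sequences. It is too short to hold all of these runs, so some lie elsewhere. The other 5 pairs were 60.5 to 62.4% identical and shared no run of 31 bases. The longest stretch among them was that of Gstt2 and Gstt3, which starts at base 46.
Gstt1 and Gstt3, coding, 35 bases: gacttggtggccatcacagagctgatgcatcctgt
Gstt2 and Gstt3, coding, 26 bases: gctgtctacatcttcgccaagaagaa

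The sequences before the starts of Gstt1 and Gstt3 are shown because this pair was the closest in coding sequence. Among the tested members it also had the highest Pearson's r of levels over the libraries (0.60). Each is the 250 bases before the RefSeq start on the minus strand of GRCm38.p6, with CCAAT boxes on either strand in capitals (on the reverse strand the box reads ATTGG). For Gstt1 the annotation also has a start farther upstream, so the window covers 1 of its starts and lies within an intron of the longer transcript.
Gstt1, chr10:75797732-75797981: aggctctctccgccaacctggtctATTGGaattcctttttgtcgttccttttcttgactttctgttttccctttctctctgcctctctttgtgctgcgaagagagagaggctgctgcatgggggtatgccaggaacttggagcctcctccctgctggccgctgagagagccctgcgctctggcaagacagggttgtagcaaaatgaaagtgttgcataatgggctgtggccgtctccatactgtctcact
Gstt3, chr10:75781423-75781672: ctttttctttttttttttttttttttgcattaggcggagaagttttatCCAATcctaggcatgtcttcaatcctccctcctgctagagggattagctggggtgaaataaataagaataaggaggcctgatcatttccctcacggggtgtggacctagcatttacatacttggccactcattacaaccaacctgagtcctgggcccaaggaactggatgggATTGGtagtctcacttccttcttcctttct
Both strands were searched for 4 motifs, each counted by itself (a TGACNNNGC match can end in the first bases of a GCGTG match). CCAAT was found once for Gstt1, 226 bases before the start, and at 202 and 30 bases before the start for Gstt3. Of 27025 RefSeq promoters of the same length, 34.5% held CCAAT. The antioxidant response core TGACNNNGC (in 10.1% of promoters), the xenobiotic response core GCGTG (in 28.2%) and TATAAA (in 13%) were not in these windows, and none of the 4 motifs was in the Gstt4 window. A match is a description of letters, not of a bound site.

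Levels are given as RPKM, that is, reads for each kilobase of a gene relative to a total for the library. The libraries held an estimated 21300000 to 128000000 reads on genes and between 9530 and 20478 genes above 0. The PDAC lung metastasis, PDAC primary 5 and BC lung metastasis 6 had the fewest genes above 0. Of 5049 genes with a median of 2 to 20 RPKM, the range in which Gstt1 and Gstt3 mostly lie, these 3 libraries listed 28.6%, 26.3% and 21.0% at exactly 0, PDAC liver metastasis 1 listed 11.1%, and the other 5 listed 0.0198 to 1.01%. Sirt6, a deacetylase gene, was listed at 0 in PDAC primary 5, which lacks the SIRT6F/F label, and at 3.49 RPKM in PDAC primary 1, which carries it, so a value per gene gave no check of that allele. A listed 0 is for these reasons given as such and not as absence. Epithelial markers (8 genes, among them Epcam and Krt8) summed to 2960 to 5800 RPKM in BC, 2230 and 16600 RPKM in PDAC primaries 1 and 5, 6680 and 255 RPKM in PDAC liver metastases 1 and 5, and 132 RPKM in the PDAC lung metastasis. Markers of other cell types were also present in the sorted cells. In such bulk libraries, fewer cells of a type and less RNA per cell cannot be told apart.

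Gstt1 (ENSMUSG00000001663) had values in both BC lung metastases above those of both BC primaries. BC primaries 1 and 5 held 0.89 and 4.25 RPKM, and BC lung metastases 4 and 6 held 10.9 and 19.8 RPKM. These values rest on an estimated 114 and 852 reads in the primaries and 1283 and 1411 reads in the metastases. The 2 groups did not overlap, and 15.8% of the 12832 genes tested likewise had both metastases above both primaries. On the log2(RPKM + 1) scale, which understates differences of low genes, the difference was 2.32 ± 1.15 (SE, n = 2 against 2) and did not pass the test (adjusted p = 0.974, limma with Benjamini-Hochberg adjustment over 12832 genes). In that comparison 0% of the genes tested were called at an adjusted p under 0.05, and 265 had an unadjusted p under 0.05, which for Gstt1 was 0.07. Hepatocyte markers (15 genes, Alb and Apoa1 among them) summed to no more than 1.46 RPKM in any BC library, and Alb was at most 0.0127 RPKM. Neutrophil markers (10 genes) summed to 28.4 and 28.6 RPKM in the primaries of BC and to 2510 and 1540 RPKM in its metastases, and lung epithelium markers (10 genes) to 1.27 and 1.99 RPKM against 31.8 and 29.9 RPKM. Erythroid markers (8 genes) summed to 23.1 and 24.4 RPKM against 92.4 and 584 RPKM. The part of these cell types in the Gstt1 difference was not tested.

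In PDAC, Gstt1 was at 3.17 RPKM in primary 1 and listed at 0 in primary 5, at 11.1 and 8.31 RPKM in liver metastases 1 and 5, and listed at 0 in the lung metastasis. Both liver metastases lay above both primaries, as they did for 15.4% of the genes tested. The liver difference was 2.38 ± 1.15 (SE, n = 2 against 2) on the log2(RPKM + 1) scale and did not pass (limma adjusted p = 0.816). Of all genes tested, 0.00779% (1 gene) were called there. Within mouse 1 the values were 3.17 RPKM in the primary and 11.1 RPKM in the liver metastasis, and within mouse 5 they were a listed 0 and 8.31 RPKM. No fold is given against a listed 0, and the lung metastasis, being a single library at 0, gives no Gstt1 difference. Hepatocyte markers summed to 990 and 2980 RPKM in liver metastases 1 and 5, with none of the 15 at 0, against 2.39 and 248 RPKM in the primaries, where 6 and 7 were at 0. Apoa1 alone held 245 RPKM of the sum in primary 5. Macrophage markers (10 genes) summed to 11700 and 9360 RPKM in the liver metastases against 2430 and 768 RPKM in the primaries, neutrophil markers to 8730 and 217000 RPKM against 1300 and 367 RPKM, and erythroid markers to 360000 and 201000 RPKM against 61300 and 276 RPKM. The part of these cell types in the Gstt1 difference was not tested.

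Over both models, with the model as a covariate, metastases differed from primaries by 1.73 ± 0.93 for Gstt1 on the log2(RPKM + 1) scale (SE, 5 metastases against 4 primaries, limma adjusted p = 0.853). An exact permutation of the site labels within each model (60 arrangements, two-sided) gave p = 0.15, where the smallest possible was 0.0167. In this comparison 0.00779% of genes were called, and for 2.45% the BC lung and PDAC liver metastases all lay above the primaries of their model, as for Gstt1. The PDAC liver difference exceeded the BC lung difference by 0.06 ± 1.62 (limma adjusted p = 0.996), and 0% of genes were called for such a difference between the models, with 530 at an unadjusted p under 0.05. That sign turned to -0.68 without BC primary 5, to -0.34 without BC lung metastasis 4, to -0.97 without PDAC primary 5 and to -0.13 without PDAC liver metastasis 1. In order of level, BC lung metastasis came first, followed by PDAC liver metastasis, BC primary, PDAC primary and the PDAC lung metastasis. The BC lung range, 10.9 to 19.8 RPKM, overlapped the PDAC liver range, and the BC and PDAC primaries overlapped each other. The PDAC liver range did not overlap that of BC primaries. That difference was not tested, and the share of all genes with such a gap was not counted.

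**Figure D1:**
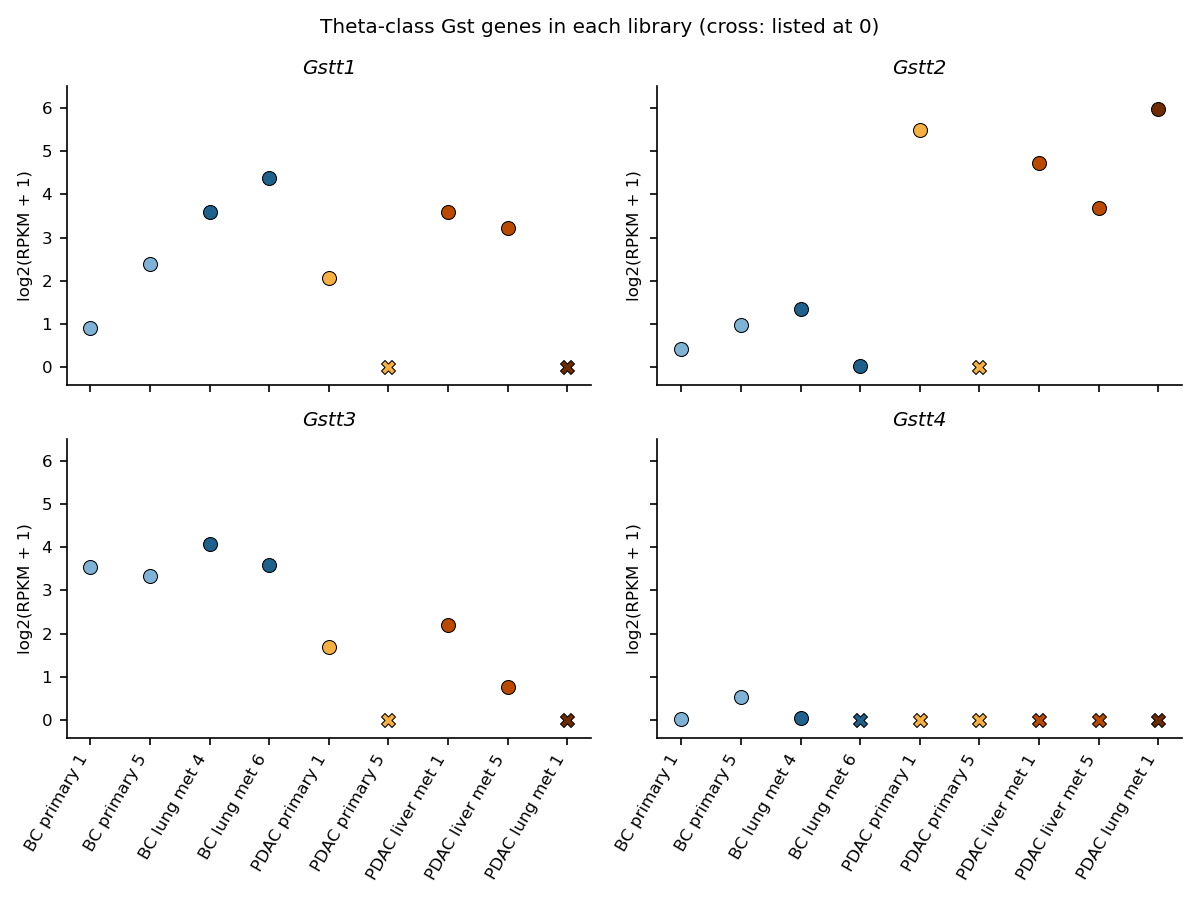
Level of each theta-class gene in each library, as log2(RPKM + 1) on the vertical axis, with 1 point per library coloured by group and a cross where the library lists the gene at 0. Gstt1 is higher in the metastases of each pair of groups except the PDAC lung metastasis, Gstt2 is high in 4 PDAC libraries, Gstt3 is high in the 4 BC libraries and Gstt4 is near 0 everywhere.

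Gstt3 (ENSMUSG00000001665) was the theta gene with the highest RPKM in 3 of the 4 BC libraries and ranged from 9.15 to 15.8 RPKM in BC. BC primaries 1 and 5 held 10.6 and 9.15 RPKM of it, and BC lung metastases 4 and 6 held 15.8 and 11.1 RPKM. The BC metastasis difference was 0.39 ± 1.09 on the log2(RPKM + 1) scale (SE, n = 2 against 2, limma adjusted p = 1). All 5 PDAC libraries were below all 4 BC libraries, as for 6.23% of the genes tested. The groups ranked BC lung metastasis, BC primary, PDAC liver metastasis, PDAC primary and PDAC lung metastasis, with overlap between the liver metastases and primaries of PDAC. Gstt3 was at 2.25 RPKM in PDAC primary 1 and listed at 0 in primary 5, at 3.59 and 0.712 RPKM in liver metastases 1 and 5, and listed at 0 in the lung metastasis. The PDAC liver difference was 0.64 ± 1.09 (limma adjusted p = 0.976) and turned to -0.21 without PDAC primary 5 and to -0.07 without PDAC liver metastasis 1. Over both models the metastasis difference was 0.26 ± 0.76 (limma adjusted p = 0.976, exact permutation p = 0.65), with -0.08 and -0.03 when the same libraries were left out. The effects of the models differed by 0.24 ± 1.54 (limma adjusted p = 0.977), a sign that turned to -0.61 without PDAC primary 5 and to -0.47 without PDAC liver metastasis 1 and came to 0 without BC lung metastasis 6.

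Between the models, Gstt3 differed by -2.59 ± 1.09 on the log2(RPKM + 1) scale in primaries (PDAC minus BC, SE, n = 2 against 2), which did not pass (limma adjusted p = 0.349). Of all genes, 0.0312% (4 genes, all higher in PDAC) were called in that comparison, against 12 higher and 20 lower under quantile scaling and 4 higher and 2 lower after rescaling without haemoglobin genes. With all sites together and site class as a covariate, a contrast added after the values were seen, the Gstt3 difference was -2.73 ± 0.76 (SE, 5 PDAC against 4 BC libraries, limma adjusted p = 0.0776, unadjusted p = 0.00317). In this contrast 2.97% of the 12832 genes were called, 145 higher and 236 lower in PDAC (112 and 429 after the rescaling). Gstt3 passed under quantile scaling (-2.87, limma adjusted p = 0.0315) and after rescaling without haemoglobin genes (-3.10, limma adjusted p = 0.0385). Both settings called more genes in all than the main fit did (the number under quantile scaling is given in the last section). Haemoglobin and other erythroid markers (8 genes) summed to 23.1 to 584 RPKM in BC and to 276 to 360000 RPKM in PDAC, while all 6 tested fibroblast markers had negative differences over all sites (median -1.13, none called). Fibroblast markers (7 genes) summed to 19.9 to 77.6 RPKM in BC, 18 and 11.8 RPKM in PDAC primaries, 35.5 and 41.8 RPKM in the liver metastases and 103 RPKM in the lung metastasis. In the lung metastasis Dcn alone was at 103 RPKM, Col1a1 was at 0.0239 RPKM and the other 5 were listed at 0. Their part in the Gstt3 difference, and that of the epithelial markers given above, was not tested.

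Gstt2 (ENSMUSG00000033318) had the opposite distribution, with high values in 4 of the 5 PDAC libraries. Its value was 43.5 RPKM for PDAC primary 1, with 25.3 and 11.9 RPKM in liver metastases 1 and 5 and 61.4 RPKM in the lung metastasis, and it was listed at 0 in PDAC primary 5. In the lung metastasis 94.5% of genes had a value no higher than that of Gstt2. BC values were 0.339 and 0.958 RPKM in primaries 1 and 5, and 1.53 and 0.0156 RPKM in lung metastases 4 and 6, the last of these resting on an estimated 3 reads. The ranges of the 2 models overlapped, since PDAC primary 5 lay below every BC library. How many genes had a like distribution was not counted. By mean log2(RPKM + 1) the groups ranked PDAC lung metastasis (5.96), PDAC liver metastasis (4.21), PDAC primary (2.74), BC primary (0.70) and BC lung metastasis (0.68), and the primaries of PDAC spanned its liver metastases as the lung metastases of BC spanned its primaries. The lung metastasis held the highest value of all, in a library where Gstt1, Gstt3 and Gstt4 were listed at 0.

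The Gstt2 difference over all sites was 3.17 ± 1.10 on the log2(RPKM + 1) scale (PDAC minus BC, SE, 5 against 4 libraries) and did not pass (limma adjusted p = 0.144). It passed without PDAC primary 5 (4.35, limma adjusted p = 0.00776), the PDAC library that listed Gstt2 at 0. It also passed without the 3 libraries with the fewest genes (3.82, limma adjusted p = 0.0156), PDAC primary 5 among them. In that fit 1145 genes were called over all sites, against 381 (2.97%) in the fit of all libraries. With 1 library left out, 153 to 818 genes were called. In primaries alone the difference was 2.04 ± 1.62 (limma adjusted p = 0.59), and it turned to -0.70 without PDAC primary 1. Site differences within a model did not pass. They were -0.01 ± 1.62 for BC lung metastasis (limma adjusted p = 1), 1.47 ± 1.62 for PDAC liver metastasis (limma adjusted p = 0.927) and 3.22 ± 1.99 for the single PDAC lung metastasis (limma adjusted p = 0.543, against 0.584% of genes called there, 22 higher and 53 lower, or 23 and 31 under quantile scaling and 108 and 9 with a pseudocount of 5). The BC value turned to 0.26 without BC primary 5 and to 0.64 without BC lung metastasis 6, and the PDAC liver value to -1.27 without PDAC primary 5. The lung metastasis came from mouse 1, whose primary held 43.5 RPKM beside its 61.4 RPKM. With the mouse as a replicate block the PDAC lung difference was 1.60 (limma adjusted p = 0.731), and against the primary of the same mouse alone, without PDAC primary 5, it was 0.49. Without PDAC primary 1 it was 5.96, which sets the lung metastasis against the primary of the other mouse alone, where Gstt2 is listed at 0. Over both models the metastasis difference was 1.11 ± 1.10 (limma adjusted p = 0.873, exact permutation p = 0.483), or -0.30 without PDAC primary 5. The models' effects differed by 1.48 ± 2.30 (limma adjusted p = 0.892), or by -1.26 without PDAC primary 5.

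The genes whose levels were most like those of Gstt2 included T cell genes. The 5 tested genes with the highest Pearson correlation to it on the log2(RPKM + 1) scale over the 9 libraries were Cd3g (r = 0.994), Cd8b1 (0.99), Rftn1 (0.989), Gimap6 (0.986) and Cd69 (0.982). Cd3g is a subunit of the T cell receptor complex, Cd8b1 a coreceptor chain of cytotoxic T cells and Cd69 an early activation antigen of lymphocytes. Cd3g had 76.2 RPKM in primary 1 of PDAC, 88.1 and 24.4 RPKM in the liver metastases and 116 RPKM in the lung metastasis, but 0.0298 RPKM in PDAC primary 5 and 0 to 2.19 RPKM in BC. The 10 lymphocyte markers summed to 10.2 to 70.4 RPKM in BC, 34500 and 2.16 RPKM in PDAC primaries 1 and 5, 6340 and 11500 RPKM in the liver metastases and 3410 RPKM in the lung metastasis. PDAC primary 5 listed Cd3e, Cd3d, Cd79b, Ms4a1 and Nkg7 at 0. The lung metastasis listed the B cell marker Ms4a1 at 0 while Cd3e was at 89.7 RPKM and Cd3d at 74.7 RPKM. Within PDAC the lymphocyte sum did not rank the libraries as Gstt2 did, since liver metastasis 5 had a higher sum than the lung metastasis. Most of that sum was Igkc, an immunoglobulin gene. It held 27900 RPKM in primary 1, 9320 RPKM in liver metastasis 5 and 2620 RPKM in the lung metastasis. Of the T cell markers in the list, liver metastasis 5 had Cd3e at 14.8 RPKM, below the lung metastasis, and Cd3d at 213 RPKM, above it. Erythroid, macrophage and neutrophil sums were also higher in the 4 PDAC libraries with Gstt2 than in PDAC primary 5. Erythroid sums were 61300 to 360000 RPKM against 276 RPKM, macrophage sums 2430 to 11700 RPKM against 768 RPKM and neutrophil sums 1300 to 217000 RPKM against 367 RPKM. The lung epithelium sum was 482 RPKM in PDAC primary 5, of which Sftpd held 462 RPKM. It was 28.7 RPKM in primary 1, 19.3 and 90.3 RPKM in liver metastases 1 and 5 and 36200 RPKM in the lung metastasis. Acinar markers (4 genes) summed to 185 RPKM in PDAC primary 5 and to 0 to 31.6 RPKM in the other PDAC libraries. Endothelial markers (7 genes) summed to 340 RPKM in the lung metastasis and to 0 to 11.1 RPKM in the other PDAC libraries. Correlations over libraries that share depth and gene detection are a description, and the part of any of these cell types in the Gstt2 level was not tested.

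**Figure D2:**
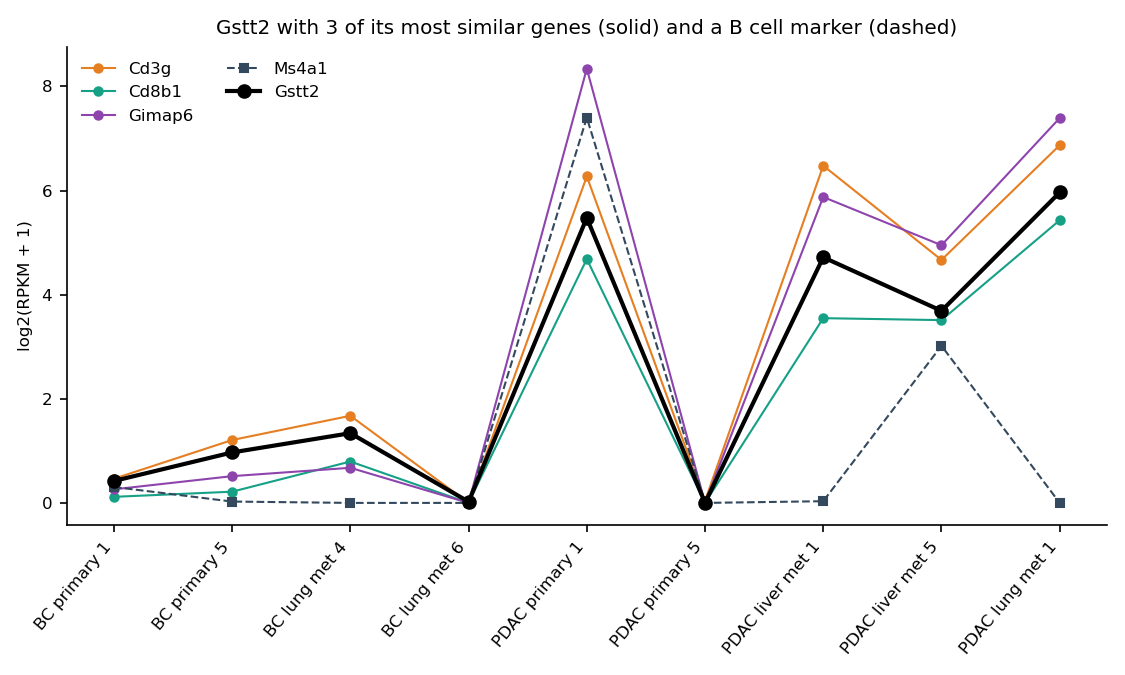
Gstt2 (black), 3 of the 5 genes most like it over the libraries (Cd3g, Cd8b1 and Gimap6, solid lines) and the B cell marker Ms4a1 (dashed), as log2(RPKM + 1) on the vertical axis for each of the 9 libraries. The lines only join the points of a gene. Gstt2 and the solid lines are high in the same 4 PDAC libraries, whereas Ms4a1 is at 0 in the PDAC lung metastasis.

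The genes most like the other members were of other kinds. For Gstt1 they were Uros (r = 0.934), Armc3 (0.933), Zfp119a (0.929), Coq10a (0.915) and Ly96 (0.914). Uros, an enzyme of haem synthesis, had 2.11 and 2.71 RPKM in the primaries of BC and 5.35 and 11.9 RPKM in its metastases, then 4.81 RPKM in PDAC primary 1 and 7.43 and 3.21 RPKM in the liver metastases. It was listed at 0 in the same 2 PDAC libraries as Gstt1. For Gstt3 they were Gcat (r = 0.987), Ddah2 (0.987), Twist1 (0.982), Hspb8 (0.981) and Lmf1 (0.981). Twist1, a transcription factor of mesenchymal cells, was at 30 to 58.2 RPKM in BC and at 0 to 13.6 RPKM in PDAC. Between members, Pearson's r over the 9 libraries was 0.60 for Gstt1 with Gstt3, -0.09 for Gstt1 with Gstt2 and -0.495 for Gstt2 with Gstt3, again as descriptions.

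Gstt4 (ENSMUSG00000009093) was near or at 0 in every library. Primaries 1 and 5 of BC held 0.0241 and 0.455 RPKM and BC lung metastasis 4 held 0.0395 RPKM, an estimated 2, 59 and 3 reads, and was listed at 0 in the other 6 libraries. It did not reach 1 RPKM in any library and was therefore not among the 12832 genes tested, so that 3 of the 4 members were. With no filter on low values its BC difference was -0.26 ± 0.15 on the log2(RPKM + 1) scale (limma adjusted p = 1) and its difference over both models was -0.12 ± 0.10 (limma adjusted p = 0.86, exact permutation p = 0.667).

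RPKM is per length, so shares and ratios between the members of a library depend on the gene lengths used. All annotated exons together were 1528 bases for Gstt1, 4156 for Gstt2, 3842 for Gstt3 and 989 for Gstt4, with coding sequences of 720 to 732 bases. Which transcripts were expressed was not tested, and with shorter ones the values of Gstt2 and Gstt3 would be too low beside Gstt1. The sum of the 4 genes was 11.9 and 14.8 RPKM for primaries of BC and 28.3 and 30.9 RPKM for its metastases, then 48.9 RPKM in PDAC primary 1, with 40.1 and 20.9 RPKM in liver metastases 1 and 5 and 61.4 RPKM in the lung metastasis. In BC, Gstt3 held 89.4% and 61.7% of the sum in primaries 1 and 5, and 55.9% and 35.9% in lung metastases 4 and 6. Gstt1 held 7.51% and 28.7% in the primaries and 38.6% and 64.1% in the metastases. The ratio of Gstt1 to Gstt3 was thus 0.0839 and 0.465 in BC primaries and 0.691 and 1.79 in BC lung metastases. Gstt2 held 88.9%, 63.2%, 56.9% and 100% of the sum in PDAC primary 1, liver metastases 1 and 5 and the lung metastasis, and no more than 6.47% in any BC library. The metastases of BC had both a higher sum and a larger Gstt1 share than the primaries, with no test on either.

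**Figure D3:**
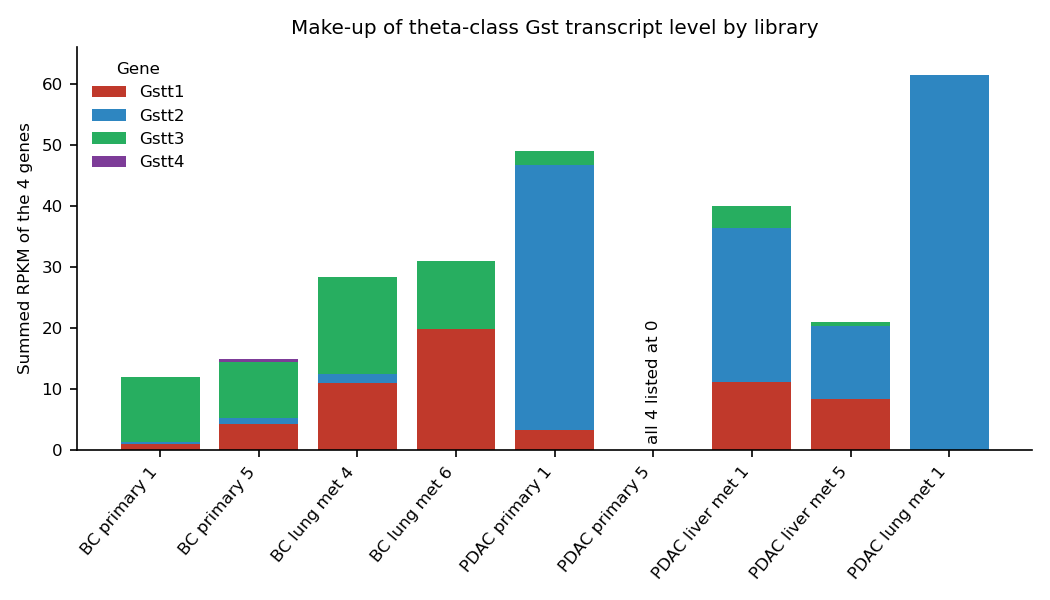
Stacked bars of the RPKM of the 4 theta-class genes in each library, with the summed RPKM on the vertical axis. Gstt3 and Gstt1 make up the BC bars, Gstt2 makes up most of the PDAC bars, and PDAC primary 5 has no bar because all 4 genes are listed at 0.

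**Figure D4:**
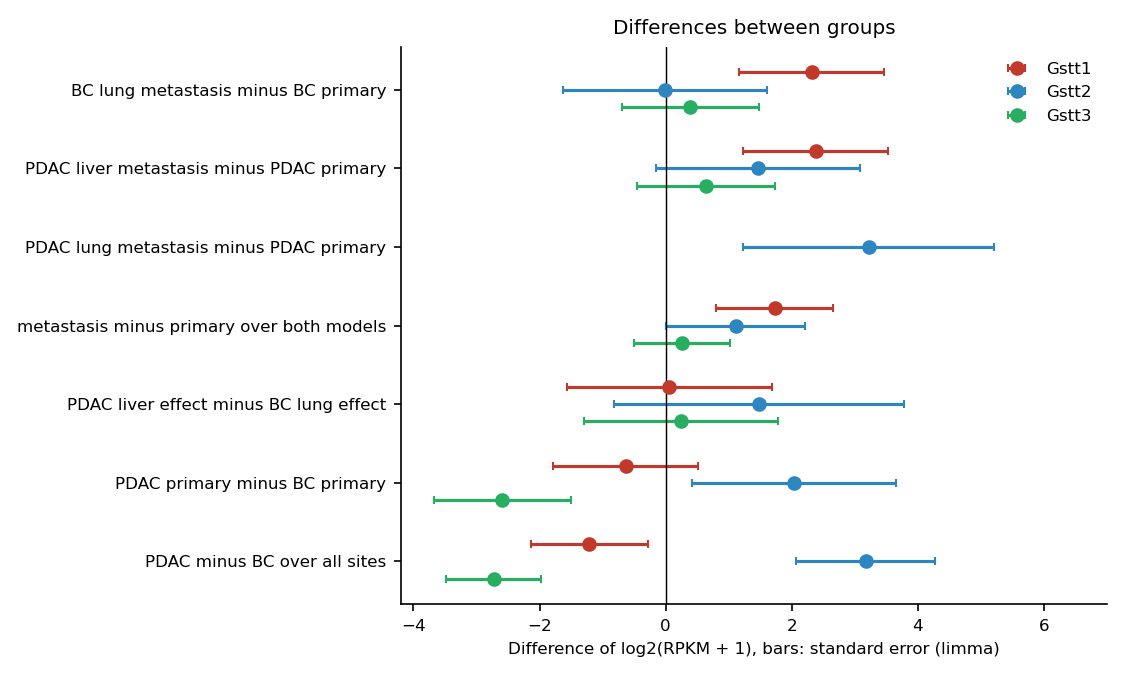
Difference between groups for each tested member on the log2(RPKM + 1) scale (horizontal axis), with points for limma's estimate and bars for its standard error. Gstt1 lies to the right of 0 for both metastasis comparisons, Gstt2 and Gstt3 lie on opposite sides for the comparisons of the models, and no point passed the test at an adjusted p under 0.05.

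The genes on either side of the cluster were read in the same libraries. On the Gstt3 side lie Ddt, encoding D-dopachrome tautomerase, Cabin1, Susd2 and Ggt5, a gamma-glutamyltransferase gene. On the Gstt2 side lie Mif, encoding the cytokine macrophage migration inhibitory factor, Derl3, Smarcb1 and Mmp11. None of the 7 neighbours that were tested was called in any comparison, and Susd2 did not pass the filter. Mif was at 686 to 3080 RPKM in BC and at 70.1 to 823 RPKM in PDAC, with 587 RPKM in PDAC primary 5, where all 4 theta genes were listed at 0. Ddt was at 49.0 RPKM in PDAC primary 5 and listed at 0 in the PDAC lung metastasis. Ggt5 was at 42.8 RPKM in PDAC liver metastasis 5 and 22.1 RPKM in the lung metastasis and at no more than 1.10 RPKM elsewhere. Smarcb1, a chromatin remodelling subunit, was at 4.87 to 27.4 RPKM in 7 libraries and at 0.00785 and 0.00962 RPKM in PDAC primary 5 and the PDAC lung metastasis, where Gstt1 and Gstt3 were listed at 0. Gm20441, a locus that overlaps Ddt and Gstt3, was at most 0.0345 RPKM in any library. Since the library kit leaves strand unmarked, overlapping loci cannot be separated with certainty.

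**Figure D5:**
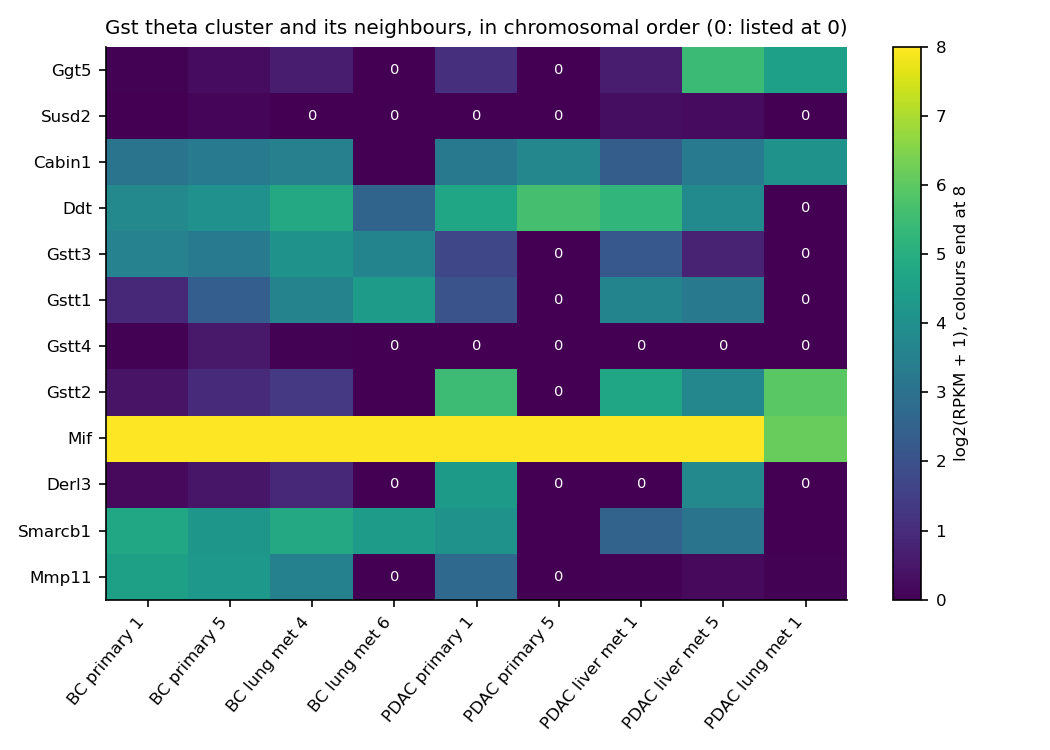
Heat map of log2(RPKM + 1) for the 4 theta-class genes and the 4 nearest protein-coding genes in the table on each side, in chromosomal order from top to bottom, with 1 column per library and colours ending at 8. Cells marked 0 are listed at 0, and Mif exceeds the theta genes in every library.

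The other steps of glutathione conjugation were described by lists of genes. Of the 17 tested genes of other glutathione S-transferase classes, none was called in any metastasis comparison. In BC lung metastasis 10 had positive and 7 negative differences, with a median of 0.04 beside -0.29 for all genes. In PDAC liver metastasis 7 were positive and 10 negative, with a median of -0.13 beside 0.08 for all genes. The 3 with the highest mean level were Gsto1, an omega-class thiol transferase, Gsta4, which acts on the lipid aldehyde 4-hydroxynonenal, and the pi-class Gstp1. Gsto1 was at 3060 RPKM and Gsta4 at 2320 RPKM in PDAC primary 5, the library in which the theta genes were listed at 0. In the other libraries Gsto1 was at 45.1 to 423 RPKM and Gsta4 at 0.164 to 359 RPKM. Gstp1 was at 83.8 to 496 RPKM in BC and at 79.7 to 641 RPKM in PDAC.

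Between the models, 15 of these 17 genes had positive and 2 negative differences over all sites, with a median of 1.00 beside -0.21 for all genes. Mgst1, a membrane-bound transferase, was the 1 gene called. Its values were 10.3, 17.5, 60.8 and 11.1 RPKM for BC primaries 1 and 5 and lung metastases 4 and 6. In PDAC it was at 52.3, 164, 201, 405 and 231 RPKM in primaries 1 and 5, liver metastases 1 and 5 and the lung metastasis. Its difference was 3.02 ± 0.60 on the log2(RPKM + 1) scale (limma adjusted p = 0.0194). Neutrophil markers summed to 28.4 to 2510 RPKM in BC and to 367 to 217000 RPKM in PDAC, with the highest sum in PDAC liver metastasis 5, where Mgst1 was also highest, and their part in the Mgst1 difference was not tested. The call was lost with no filter (limma adjusted p = 0.0759) and without BC primary 1 (0.0551) or PDAC liver metastasis 5 (0.0506).

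Genes that supply glutathione (13 tested) held none called in the metastasis comparisons. In BC lung metastasis 2 had positive and 11 negative differences (median -0.76 beside -0.29 for all genes). In PDAC liver metastasis 10 were positive and 3 negative (median 0.96 beside 0.08 for all genes). The highest-level genes of this list were Taldo1, a transaldolase of the pentose phosphate pathway, Gsr, which regenerates reduced glutathione, and Slc3a2, the heavy chain of the cystine transporter. Taldo1 was called between the models, at 75.4 to 217 RPKM in BC and 275 to 1530 RPKM in PDAC (1.90 ± 0.40 on the log2(RPKM + 1) scale, limma adjusted p = 0.0243). That call was lost with no filter (limma adjusted p = 0.0704), without the 3 libraries with the fewest genes (0.0555), and without BC primary 5 (0.0724), BC lung metastasis 4 (0.127) or PDAC primary 1 (0.0601). The highest Taldo1 value was in PDAC liver metastasis 5, the library with the highest neutrophil sum, whose part was not tested. Gsr differed by -0.91 ± 0.84 in BC lung metastasis (limma adjusted p = 0.974) and by 1.77 ± 0.84 in PDAC liver metastasis (limma adjusted p = 0.804). Slc3a2 was at 79.3 to 152 RPKM in BC and at 51.6 to 216 RPKM in PDAC.

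Glutathione peroxidases and glutaredoxins (10 tested) again had none called. In BC lung metastasis 9 differences were positive and 1 negative (median 0.80 beside -0.29 for all genes). In PDAC liver metastasis 6 were positive and 4 negative (median 0.53 beside 0.08 for all genes). Gpx1, the main cytosolic peroxidase, had 1200 and 1100 RPKM in the primaries of BC and 1800 and 3310 RPKM in its metastases. PDAC values were 1750 and 1370 RPKM in the primaries, 5490 and 9860 RPKM in the liver metastases and 6610 RPKM in the lung metastasis. Every metastasis was above both primaries of its model, as for 1.61% of the genes tested, and the difference over both models was 1.69 ± 0.33 (limma adjusted p = 0.274). The erythroid sums given above, 360000 RPKM in the lung metastasis included, were likewise higher in every metastasis than in the primaries of its model. So were macrophage and neutrophil sums in PDAC, with 11000 and 21000 RPKM in the lung metastasis, and their part in the Gpx1 difference was not tested. Gpx4, which reduces lipid hydroperoxides, differed by 1.11 ± 0.61 in BC lung metastasis (limma adjusted p = 0.974) and by 0.11 ± 0.61 in PDAC liver metastasis (limma adjusted p = 1). Glrx5, a mitochondrial glutaredoxin of iron-sulfur cluster assembly, differed by 1.00 ± 0.65 in each of these comparisons (limma adjusted p = 0.974 and 0.871).

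Export of conjugates and the mercapturate route (11 tested of 17) and NRF2 with its targets (12 tested) held no called gene in any comparison. The export list had 4 positive and 7 negative differences in BC lung metastasis (median -0.39 beside -0.29 for all genes). It had 8 and 3 in PDAC liver metastasis (median 0.69 beside 0.08 for all genes). Its highest-level genes were Lap3, an aminopeptidase, Cndp2, a cytosolic dipeptidase, and Dpep2, a membrane dipeptidase. Dpep2 was at 0.00471 to 1.43 RPKM in BC, at 12.7, 8.95, 48.5 and 41.5 RPKM in the 4 PDAC libraries with Gstt2, and at 0.00703 RPKM in PDAC primary 5. Lap3 was at 26.4 to 60.3 RPKM in BC and at 5.28 to 42.0 RPKM in PDAC. Cndp2 was at 10.9 to 21.8 RPKM in BC, at 0.0301 RPKM in PDAC primary 5 and at 21.6 to 73.9 RPKM in the other PDAC libraries. NRF2 is the transcription factor, encoded by Nfe2l2, that acts through antioxidant response elements. Its list had 4 positive and 8 negative differences in BC lung metastasis (median -0.61 beside -0.29 for all genes). In PDAC liver metastasis the list had 9 and 3 (median 0.62 beside 0.08 for all genes). Nfe2l2 was at 5.75 to 34.4 RPKM in BC and at 25.0 to 74.8 RPKM in PDAC. The antioxidant proteins Txn1 and Prdx1 were at 336 to 1390 RPKM and 301 to 1140 RPKM in BC and at 309 to 845 RPKM and 143 to 1610 RPKM in PDAC.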

How the data were processed

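RNA of GFP- or YFP-sorted tumour cells was made into libraries with the SMART-seq v4 and Nextera XT kits, per the labels' protocols, and processing notes of the submitters name mm9 as build. Aligner, counting program and annotation are not given in the sources used here. Per the file itself, the authors deposited 1 table of 23799 genes (166 at 0 everywhere) named CPM. Multiplied by gene length (GENCODE release M21, found for 93.0% of genes), 62.8 to 74.4% of the values under 20 reads were whole multiples of 1 step per library within 0.02, and 4.64 to 5.5% were without it, so the deposited values were read as RPKM. Estimated reads are the value times length times the total that step gives (12800000 to 131000000), and no count test was run. That total is not the sum of reads on genes, which was higher in every library but BC primary 5. In PDAC liver metastasis 5 the total was 36400000 and the estimated reads on genes were 65200000. What the total counts is not known, so the read numbers are estimates only.

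limma 3.58.1 (R 4.3.3) with trend and robust moderation was run on log2(RPKM + 1), for 12832 genes that reached 1 RPKM in 2 or more libraries. A single fit of the 9 libraries had a mean for each group (residual degrees of freedom 4, median prior 6.17), and so takes the lone PDAC lung metastasis to vary as other groups do. The fit over both models had site class and model (residual degrees of freedom 6). All tests were two-sided, adjusted over all genes tested, and called at an adjusted p under 0.05. The script was tested on simulated data. PDAC libraries of the same number share age and genotype, and the submitters call the metastases matched, so the numbers pair samples by mouse, although the deviations of same-numbered primary and liver libraries had a correlation of -0.165 over 12832 genes. BC groups share no number.

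The members and lists were chosen with earlier results of these data known. Named genes were the members, the 3 tested genes of highest mean level and any called gene of each pathway list, the 5 genes most correlated with each member, the 4 nearest protein-coding genes on each side and the marker lists. Of 173 list genes 169 were in the table, 5 by Ensembl identifier. Promoter sequences are RefSeq's (GRCm38.p6), found for 3 of the 4 members, and coding sequences were aligned with Biopython 1.88 in Python 3.11.15. Alternatives covered the pseudocount, the filter, the scaling, the libraries in the fit, the replicate block and each library left out.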

Additional observations from a re-analysis of the deposited data

How the results depend on the processing

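Gstt1 kept a positive difference in BC lung metastasis (1.43 to 3.06 over 18 alternatives), PDAC liver metastasis (1.20 to 4.09 over 18) and over both models (1.02 to 2.35 over 17), with adjusted p never below 0.106. The PDAC liver value was 1.35 to 3.41 with 1 library left out. Gstt3 between the models stayed negative in primaries (-4.36 to -1.30) and over all sites (-4.34 to -1.44), and Gstt2 over all sites stayed positive (2.03 to 4.35). Scaling moved the median of all genes from -0.29 to 0.01 (quantile) or -0.65 (without haemoglobin) in BC, from -0.16 to -0.01 or -0.45 over both models and from -0.21 to -0.05 or -0.60 between the models. Quantile scaling turned the BC value of Gstt2 to 0.48 and the difference of the models' effects to -0.27 for Gstt1 and -0.13 for Gstt3, and gave -2.87 (passing) for Gstt3 between the models. Without haemoglobin the Gstt3 values were -0.05 in BC, -0.02 over both models and -3.10 (passing) between the models. With a pseudocount of 5 the BC value of Gstt2 was 0.02, and the effects differed by -0.23 for Gstt1 and -0.08 for Gstt3. Without the 3 libraries with the fewest genes, Gstt2 was at 0.64 in BC, -1.27 in PDAC liver, -0.31 over both models, -1.91 for the difference of effects and 3.82 (passing) between the models. Gstt3 was then at -0.21 in PDAC liver and -0.85 for the difference of effects, and Gstt1 at -0.57 for the latter, 0.40 between primaries and 0.12 between the models. With 1 library left out, Gstt2 ranged from -0.67 to 0.64 in BC, -1.27 to 4.21 in PDAC liver, 0.49 to 5.96 in PDAC lung, -0.30 to 2.04 over both models, -1.26 to 4.22 for the difference of effects, -0.70 to 4.78 between primaries and 2.39 to 4.35 between the models. Gstt3 ranged from -0.21 to 1.49 in PDAC liver, -0.08 to 0.65 over both models and -0.61 to 1.09 for the difference of effects, and Gstt1 from -0.97 to 1.09 for that difference and -1.66 to 0.40 between primaries. The cause of these changes was not tested.

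Counts of called genes were less stable. In BC lung metastasis the fit of BC libraries alone called 73 (34 higher, 39 lower) where the fit of all libraries called 0. PDAC liver (1 called) gave 0 with a pseudocount of 0.1, no filter, haemoglobin left out, only PDAC libraries, the replicate block or without the 3 libraries, 2 with a pseudocount of 5, 12 under quantile scaling and 0 to 1032 with 1 library left out. PDAC lung (75) gave 270 (7 higher, 263 lower) and 117 (108 and 9) with pseudocounts of 0.1 and 5, 251 (205 and 46) with no filter, 1 with only PDAC libraries, 0 with the replicate block and 0 to 1547 with 1 library left out. Both models (1) gave 0 with a pseudocount of 0.1, no filter, haemoglobin left out, the replicate block or without the 3 libraries, 3 with a filter of 5 RPKM, 4 under quantile scaling and 0 to 10 with 1 library left out. The difference of effects (0) gave 0 to 30. PDAC against BC primaries (4) gave 0 with no filter, 32 (12 higher, 20 lower) under quantile scaling, 1 with the replicate block, 72 without the 3 libraries and 1 to 803 with 1 left out. PDAC against BC over all sites (381) gave 207 with no filter, 637 under quantile scaling, 298 with the replicate block, 1145 (593 higher, 552 lower) without the 3 libraries and 153 to 818 with 1 left out. The replicate block, centred so that PDAC stands at the mean of its mice, changed no member's call and neither that of Mgst1 nor of Taldo1. Crossing the PDAC numbers, an alternative chosen after seeing the data, called 2, 46, 124, 9, 15 and 589 genes in BC lung, PDAC liver, PDAC lung, both models, primaries and all sites. The comparison over all sites was itself added after seeing the data. Low reads limit Gstt4 throughout, and PDAC lung metastasis has 1 library.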
